A study of Sus scrofa with 12 samples.

Results

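SAG, TBK1 and BTBD9 are the 3 named genes whose expression rose most between 22h and 46h when porcine oocytes matured in vitro. They are 3 of the 31908 gene identifiers listed for each library, and 3 of the 6112 genes with a name and a mean of at least 1 FPKM (fragments relative to the length of the transcript and to all fragments of the library). They were chosen by the difference between the 46h and 22h libraries, so that difference is described here and not tested. Transcriptional profiling covered 12 libraries, with 4 replicates at each of 0h, 22h and 46h. The paper treats 0h as the germinal vesicle stage and 46h as metaphase II, whereas the labels give only hours. It cites earlier work in which most, but not all, oocytes were at the named stage at similar times. Each library was made from 20 oocytes that came from ovaries of prepubertal gilts (Sus scrofa) collected at a slaughterhouse. The 22h and 46h groups were cultured as cumulus-oocyte complexes in a TCM199-based medium with porcine follicular fluid, epidermal growth factor and gonadotropins, and the 0h group was collected before any culture time had passed. Cumulus cells were removed from all groups with hyaluronidase before lysis. Maturation time is the only difference that the labels give, and between 0h and the later stages it cannot be told apart from exposure to the medium. The series text calls the middle time 24h, whereas the sample labels call it 22h, which is used here. Complexes from many ovaries were pooled and the labels do not tie a library to an animal, so p-values measure the spread between these libraries. In libraries of pooled oocytes, fewer oocytes that contain a transcript and less of it per oocyte cannot be told apart.

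The 3 genes are known for different work. SAG encodes visual arrestin (S-antigen), which ends the response to light in rod photoreceptors, and its relatives the beta-arrestins end the signalling of many receptors in other cells. TBK1 encodes a serine/threonine kinase that acts downstream of cytosolic DNA and RNA sensors to phosphorylate IRF3 and induce type I interferon, and that also phosphorylates autophagy receptors such as optineurin. BTBD9 encodes a BTB-domain protein, a class whose members can serve as substrate adaptors of CUL3 ubiquitin ligases, and it is best known from the genetics of restless legs syndrome and from work on iron. A fully grown oocyte transcribes little, and its mRNA levels and poly(A) tails change during maturation. Complementary DNA was primed here with oligo-dT at the poly(A) tail, and tail length was not measured.

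On the Sscrofa11.1 build with the RefSeq annotation, SAG (ENSSSCG00000016301) lies at chr15:133704975-133741844 on the plus strand and has 2 annotated transcripts. TBK1 (ENSSSCG00000031103) lies at chr5:28880210-28929964 on the plus strand and has 4. BTBD9 (ENSSSCG00000037507) lies at chr7:33723077-34122673 on the minus strand and has 5. No other coding gene overlaps any of them in this annotation. The FPKM values carry Ensembl identifiers, and overlaps in the Ensembl annotation or with non-coding genes were not checked. In length the genes differ from each other. The longest SAG transcript has 1607 bases in 15 exons, that of TBK1 3291 bases in 21 exons and that of BTBD9 3901 bases in 11 exons, beside medians of 3424 bases and 10 exons over 5703 tested genes with an annotation. BTBD9 spans 399597 bases of the genome, which is longer than 97.4% of those genes.

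The 250 bases before the annotated start of each gene are shown because the 3 genes rose over the same interval, and they let a reader see how unlike these windows are. They are RefSeq sequence on Sscrofa11.1, read 5′ to 3′ on the strand of the gene, and capitals mark each CG.
SAG, chr15:133704725-133704974, plus strand: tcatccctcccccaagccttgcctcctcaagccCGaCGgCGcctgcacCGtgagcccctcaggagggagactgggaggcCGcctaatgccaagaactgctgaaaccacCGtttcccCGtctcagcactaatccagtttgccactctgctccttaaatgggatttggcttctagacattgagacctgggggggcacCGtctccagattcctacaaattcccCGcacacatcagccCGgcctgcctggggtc
TBK1, chr5:28879960-28880209, plus strand: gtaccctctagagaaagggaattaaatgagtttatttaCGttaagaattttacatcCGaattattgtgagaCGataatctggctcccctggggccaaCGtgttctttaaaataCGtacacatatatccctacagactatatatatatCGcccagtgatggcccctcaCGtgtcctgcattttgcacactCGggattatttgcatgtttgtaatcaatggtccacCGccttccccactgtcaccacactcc
BTBD9, chr7:34122674-34122923, minus strand: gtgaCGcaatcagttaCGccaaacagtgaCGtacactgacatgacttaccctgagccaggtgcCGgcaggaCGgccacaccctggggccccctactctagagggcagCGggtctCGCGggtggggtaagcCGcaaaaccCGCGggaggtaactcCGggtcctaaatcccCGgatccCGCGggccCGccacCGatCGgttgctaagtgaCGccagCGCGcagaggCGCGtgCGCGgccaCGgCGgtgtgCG
The SAG window holds 10 CG and 60% G or C, the TBK1 window 9 CG and 43.2%, and the BTBD9 window 28 CG and 67.2%. Over 20667 windows of the same length before annotated starts, the median was 11 CG and 57.2% G or C. Over the 5703 tested genes with an annotation, the medians were higher, at 16 CG and 60% G or C. SAG had more CG than 26.5% of those genes, TBK1 than 23.6% and BTBD9 than 82.9%. Searched on both strands, the GC box motif GGGCGG is in none of the 3 windows and in 44.4% of all windows. The motif CCAAT is in none of the 3 and in 32.0% of all, and the motif TATAAA in none of the 3 and in 10.4% of all. That says only that these letters are not in these windows.

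The 3′ ends are shown because the libraries were primed from the tail that follows them. Capitals mark the hexamer AATAAA, the canonical polyadenylation signal, in 30 bases of the 3′ untranslated region.
SAG, chr15:133741807-133741836, plus strand: tcttctcacagaAATAAAgtttgtctctta
TBK1, chr5:28929931-28929960, plus strand: tgaagaaatatcAATAAAtttctcaatttt
The hexamer starts 26 bases before the end of the longest SAG transcript, and 22 bases before the end of the longest TBK1 transcript. A search for AATAAA or ATTAAA on the transcribed strand found neither in the last 100 bases of any of the 5 BTBD9 transcripts. Of 20667 longest transcripts, 58.8% held either hexamer in their last 40 bases. TTTTAT or TTTTAAT, the letters known as a cytoplasmic polyadenylation element, are in the last 100 bases of the longest TBK1 transcript and of no SAG or BTBD9 transcript, and 15.4% of all the longest transcripts hold one of them there.

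SAG was present at 0h, almost absent at 22h and highest at 46h. Its FPKM values were 7.51, 4.18, 6.10 and 2.36 at 0h (5.04 ± 2.25, SD, n = 4). At 22h they were 0, 1.18, 0.32 and 0 (0.375 ± 0.557, n = 4), and at 46h 13.1, 8.67, 10.35 and 8.22 (10.1 ± 2.21, n = 4). No 2 stages overlapped: every 22h library was below every 0h library, and the lowest 46h library (8.22) was above the highest 0h library (7.51). At 22h 2 of the 4 values are listed at 0, and the number of reads behind them is unknown.

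TBK1 was low at 0h and 22h and higher in each 46h library. Its FPKM values were 4.91, 6.10, 0.67 and 0.52 at 0h (3.05 ± 2.88, SD, n = 4). The 22h values were 0.32, 0.86, 1.40 and 3.91 (1.62 ± 1.59, n = 4), and those at 46h 12.84, 13.33, 16.85 and 17.99 (15.3 ± 2.55, n = 4). The 0h libraries fell into a pair near 5 to 6 FPKM and a pair under 1 FPKM, and the 22h values lay within that range or just below it. Replicates at 0h also differed in other genes. The oocyte marker GDF9 was higher in 0h replicates 1 and 2 (1451.08 and 1390.55 FPKM) than in 3 and 4 (805.66 and 286.88 FPKM). ATG16L1 went the other way, with 7.84 and 3.55 against 12.53 and 25.71 FPKM. Whether the TBK1 spread follows a difference between whole libraries was not tested. The lowest 46h library (12.84) was above the highest library of the other stages (6.10).

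BTBD9 was near 1 FPKM at 0h and higher at each later stage. Its FPKM values were 1.19, 1.15, 1.43 and 1.38 at 0h (1.29 ± 0.138, SD, n = 4). They were 2.77, 12.23, 5.12 and 1.81 at 22h (5.48 ± 4.71, n = 4) and 30.99, 32.56, 18.39 and 45.28 at 46h (31.8 ± 11, n = 4). No 2 stages overlapped, although the lowest 22h library (1.81) was close to the highest 0h library (1.43). Replicate 2 at 22h was the highest of its stage and stayed below the lowest 46h library.

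**Figure D1:**
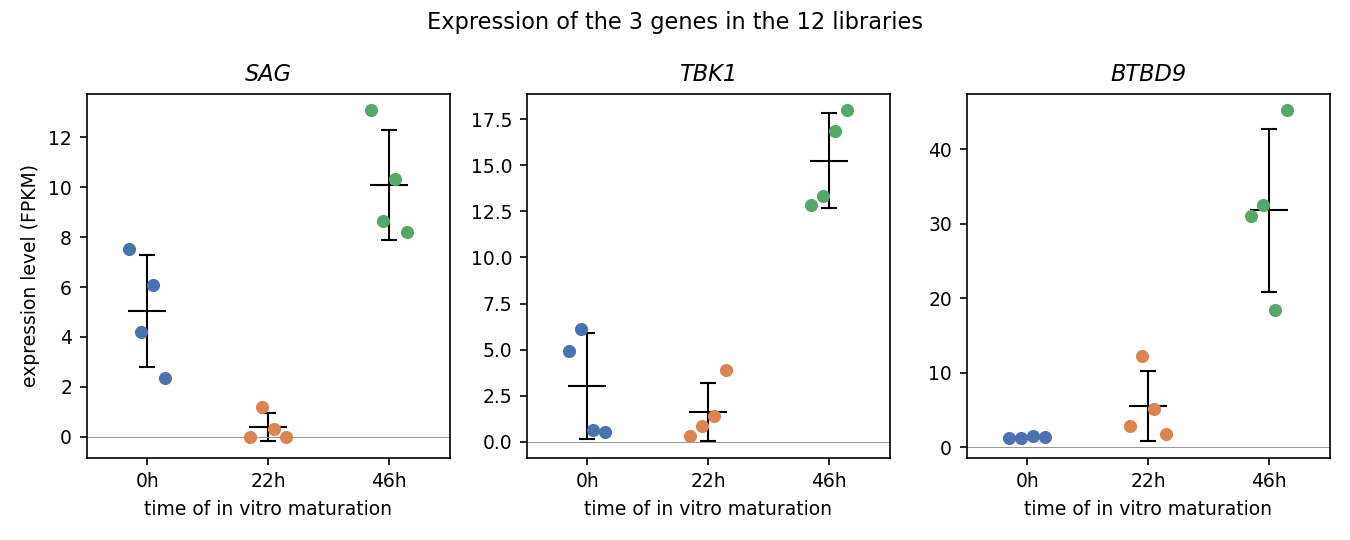
Expression level in FPKM (y axis, linear) of SAG, TBK1 and BTBD9 by hours in maturation medium (x axis). Points are single libraries, long bars the mean and short bars 1 SD of 4 libraries. SAG dips at 22h, TBK1 has overlapping 0h and 22h libraries, and BTBD9 climbs from 1.29 to 5.48 to 31.8 FPKM.

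On the log2(FPKM + 1) scale, replicates spread widely for TBK1 at 0h and 22h and for BTBD9 at 22h and 46h. SAG was less extreme on that scale, which makes the spread of values near 0 look smaller. In FPKM at 22h, the SD of SAG (0.557) exceeded its mean (0.375). Those of TBK1 (1.59, mean 1.62) and BTBD9 (4.71, mean 5.48) did not. On the scale of log2(FPKM + 1), the SD of TBK1 over the 4 libraries was 1.17 at 0h and 0.80 at 22h, larger than in 99.3% and 97.8% of the 7013 genes tested. At 46h it was 0.23, larger than in 53.4% of them. BTBD9 ran the other way. Its SD was 0.09 at 0h, larger than in only 3.94% of genes, and rose to 0.98 at 22h (99.1%) and 0.52 at 46h (96.3%). For SAG the SD was 0.59, 0.53 and 0.28, larger than in 86.3%, 89.0% and 68.9% of genes. The median SD over all genes tested was 0.31, 0.27 and 0.22 at the 3 stages. Since FPKM is relative to transcript length, levels can be ranked between genes. At 46h the mean FPKM of SAG was above 64.4% of the genes tested, that of TBK1 above 71.0% and that of BTBD9 above 81.6%, against 0.0998%, 13% and 43.7% at 22h.

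The comparison of 22h with 0h asks how the 3 genes moved over the first interval, around meiotic resumption. Because low values in the 22h libraries took part in the choice of the genes, these differences are a description too, with no test. SAG was lower at 22h, BTBD9 was higher, and TBK1 lay in one range with 0h. For SAG the difference was -2.13 on the log2(FPKM + 1) scale (SE 0.299), and its mean FPKM was 13.4 times lower, or 47.2 times without 22h replicate 2. For BTBD9 it was 1.24 (SE 0.383), and its mean FPKM was 4.26 times higher. For TBK1 it was -0.47 (SE 0.487), about the size of its standard error, and it ran from -0.83 without 22h replicate 4 to -0.09 without 0h replicate 2. In 10.3% of all genes tested the lowest 22h library exceeded the highest 0h library, as for BTBD9, and in 18.6% the reverse was seen, as for SAG. Without 22h replicate 2, the highest BTBD9 value of that stage, the BTBD9 difference was 0.81 and its mean FPKM 2.51 times that at 0h. For genes outside the choice, here and below, a gene counts as risen or fallen when its limma adjusted p is under 0.05 and its fold change over 1.5, by which 7.84% of all genes tested rose and 18.9% fell between 0h and 22h (14.9% and 16.1% with quantile normalization).

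Between 22h and 46h the log2(FPKM + 1) difference was 3.07 for SAG (SE 0.299), 2.80 for TBK1 (SE 0.487) and 2.53 for BTBD9 (SE 0.383). As a ratio of mean FPKM the rises were 26.9, 9.40 and 5.80. These ratios moved with single 22h libraries: without replicate 2 that of SAG was 94.5 and that of BTBD9 9.84, and without replicate 4 that of TBK1 was 17.7. The 1 FPKM that is added on the log scale makes the change of a low gene look smaller, so the log2 values understate the rise of SAG most. In each gene the lowest 46h library exceeded the highest 22h library, as in 13.2% of all genes tested, and 9.87% of genes rose past both thresholds while 32.6% fell. Nothing is read from this for genes that the contrast itself chose. The median difference over all genes tested was -0.26, so the 3 genes rose against an overall shift in the other direction on this scale. With a scaling by median of ratios that median was 0.02, and 20.1% of all genes rose while 25.6% fell. With quantile normalization it was 0.21, and 28.1% rose while 19.1% fell. The counts of the lists below are therefore also given under these scalings where they change.

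Just inside the choice stood BTBD9, and just outside it CCDC81 with a difference of 2.33. The 22h values of CCDC81 ran from 0.65 to 18.15 FPKM and overlapped with its 46h values, 13.32 to 34.73, and its call was lost in 6 of the 22 alternatives, with the smallest difference (1.83) without 22h replicate 4. APH1B, a subunit of gamma-secretase, followed with 1.97. STX7, a syntaxin of endosomes, had 1.88, ING3, a subunit of a histone acetyltransferase complex, 1.83, and RAD1, a subunit of a checkpoint clamp, 1.72. C4orf3 and DUS4L closed the first 10 with 1.61 and 1.56. SAG, TBK1 and BTBD9 started lower than most of these: their 22h means were 0.375, 1.62 and 5.48 FPKM, whereas C4orf3 rose from 206 to 624 FPKM. Which genes come first depends on single libraries. Without 22h replicate 1, CCDC81 came first with a difference of 3.01, followed by SAG, TBK1 and BTBD9 in places 2, 3 and 4. Without 22h replicate 4 TBK1 came first, and without 22h replicate 2 or 46h replicate 3 BTBD9 passed TBK1. BTBD9 was also in place 4 without 46h replicate 1 and with a pseudocount of 0.1, and 1 identifier without a name rose more than BTBD9.

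**Figure D2:**
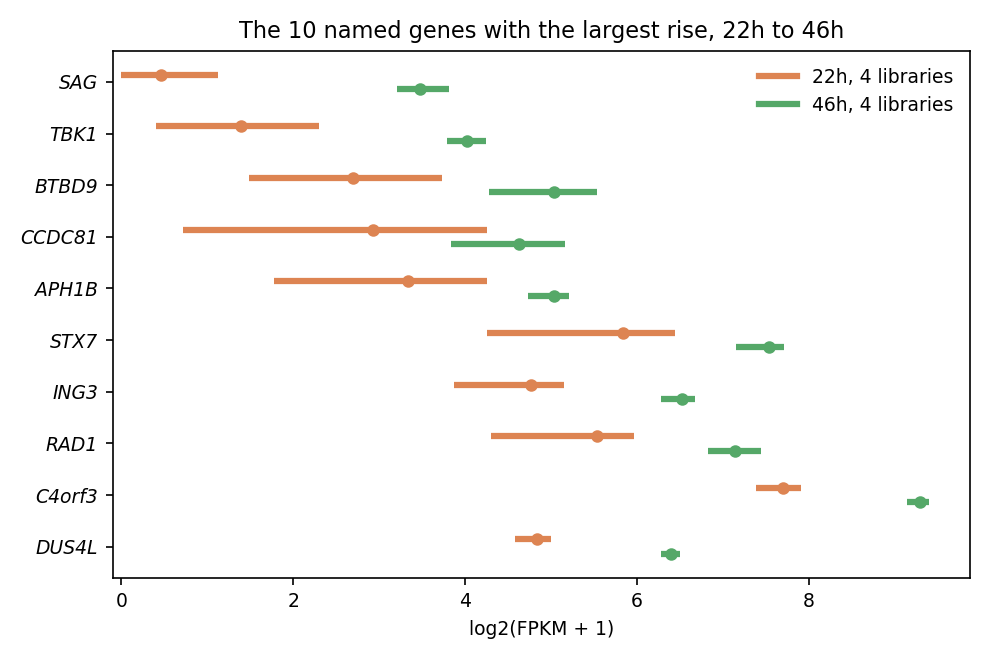
The 10 named genes with the largest rise from 22h to 46h, with log2(FPKM + 1) on the x axis. Bars run from the lowest to the highest of 4 libraries and points mark the mean FPKM on the same scale. CCDC81 is the gene whose 22h and 46h bars overlap, and SAG starts lowest.

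From 0h to 46h, the net difference on the log2(FPKM + 1) scale was 0.94 for SAG (SE 0.299), 2.33 for TBK1 (SE 0.487) and 3.78 for BTBD9 (SE 0.383). The 46h libraries chose the genes, so these values too are a description. Mean FPKM was 2.0 times higher for SAG, 5.0 times for TBK1 (7.50 times without 0h replicate 2) and 24.7 times for BTBD9. The lowest 46h library exceeded the highest 0h library for each of the 3, as in 18.2% of all genes tested. The order of the genes by net rise is thus the reverse of their order from 22h to 46h, as SAG first returned from its fall and BTBD9 was already higher at 22h.

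The 3 profiles were not alike. Over the 12 libraries, which share their depth and stage, Pearson's r of log2(FPKM + 1) was 0.70 between SAG and TBK1, 0.67 between TBK1 and BTBD9 and 0.48 between SAG and BTBD9. Each gene had closer companions among the 6111 other named genes. For SAG the closest were ARHGAP12, a GTPase-activating protein, and SNAPIN, a protein of the vesicle fusion machinery, both with r = 0.92, then NUTF2 (0.91), NUP155 (0.90) and SEPTIN11 (0.90). NUTF2 and NUP155 belong to nuclear transport and the nuclear pore. SNAPIN had 11.6 ± 3.41, 5.09 ± 0.795 and 14 ± 1.32 FPKM at 0h, 22h and 46h (SD, n = 4), lower at 22h and highest at 46h like SAG, but with a much shallower dip. TBK1 was most like BBOX1, an enzyme of carnitine synthesis (0.98), HADHB, a subunit of the mitochondrial trifunctional protein of fatty acid oxidation (0.97), PEX3, a peroxisome biogenesis factor (0.97), NDC80, a kinetochore protein (0.96), and ING3 (0.95). HADHB had 49.1 ± 11, 45.0 ± 6.79 and 93.3 ± 9.84 FPKM. BTBD9 was most like PARP14, an ADP-ribosyltransferase (0.99), SMAD1, a mediator of BMP signals (0.97), ARL1 (0.96), RFC1 (0.96) and IFT81 (0.96). PARP14 had 15.6 ± 0.965, 19.7 ± 2.55 and 29.7 ± 2.01 FPKM. An r above 0.9 was reached by 3 genes for SAG, 89 for TBK1 and 111 for BTBD9. Of the 5 genes named for each member, ranking by Spearman's correlation kept 1 for SAG, 0 for TBK1 and 1 for BTBD9.

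Of 4 tested neighbouring genes, 1 fell between 22h and 46h and 3 did not pass the test, where 32.6% of all genes fell. The gene before SAG on the same strand is ATG16L1, a component of the autophagosome conjugation machinery, which ends 11502 bases ahead of the SAG start. Its FPKM values were 7.84, 3.55, 12.53 and 25.71 at 0h, 50.54, 33.28, 36.40 and 34.51 at 22h, and 4.83, 4.31, 9.70 and 3.54 at 46h. All 22h libraries were above all others, where SAG was lowest. Within a stage the order was mixed: at 0h replicate 4 had the highest ATG16L1 and the lowest SAG, but replicate 2 had the lowest ATG16L1 and only 4.18 FPKM of SAG, and 46h replicate 3 had the highest ATG16L1 of its stage with 10.35 FPKM of SAG, above 2 of the other libraries. ATG16L1 rose by 1.83 between 0h and 22h (SE 0.421, limma adjusted p = 0.00482) and fell by 2.65 between 22h and 46h (SE 0.421, limma adjusted p = 0.000135), and both calls held under all alternatives tried. Over the 12 libraries r between SAG and ATG16L1 was -0.88 (Spearman's rank correlation -0.78), and 18 of the 6111 other named genes (0.295%) had a lower r with SAG. This is a description, since most of the relation is the difference between stages and the values share the scaling of their libraries. The 22h and 46h values that chose SAG also enter this r, so the share of 0.295% is not a probability. DGKD, 7504 bases after SAG, stayed between 0.02 and 0.19 FPKM.

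**Figure D3:**
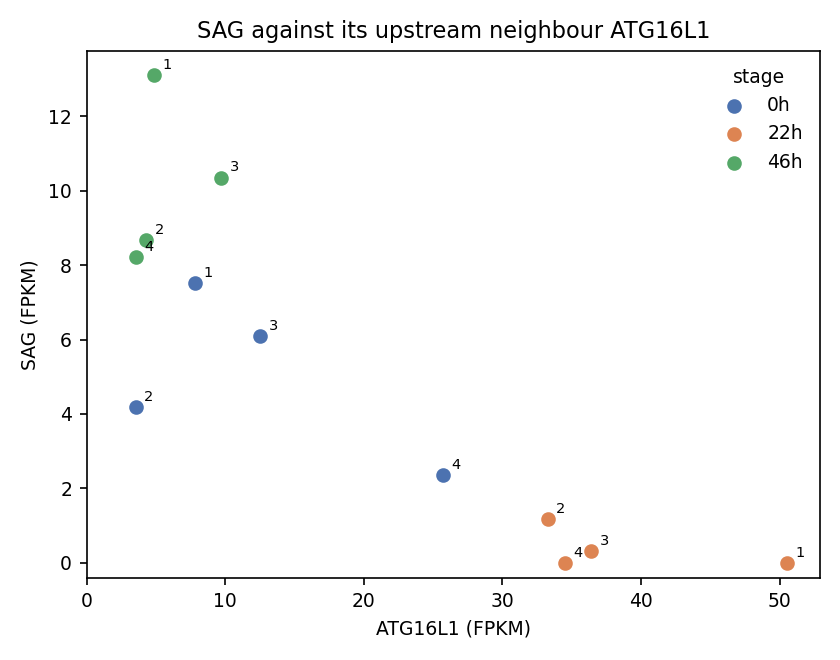
FPKM of SAG (y axis) against FPKM of its upstream neighbour ATG16L1 (x axis) in the 12 libraries, coloured by stage and numbered by replicate, both axes linear. The 22h libraries have the highest ATG16L1 and the lowest SAG, and 0h replicate 4 (25.71 and 2.36 FPKM) lies between them and the other libraries.

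Around TBK1, the exportin gene XPOT (4873 bases away) had 8.12, 13.6 and 14.5 FPKM at the 3 stages, and its difference between 22h and 46h was 0.06 (SE 0.265, limma adjusted p = 0.876). RASSF3, on the other side, rose by 0.70 between 0h and 22h (SE 0.176, limma adjusted p = 0.00771) and differed by -0.07 after that. Beside BTBD9, ZFAND3 stayed at or under 0.51 FPKM in every library. GLO1, which encodes glyoxalase I, fell by 1.01 between 0h and 22h (SE 0.192, limma adjusted p = 0.00146) and differed by -0.08 between 22h and 46h. RNF7, a RING protein of cullin ligases, shares the alias SAG but has an identifier of its own, and had 141, 196 and 317 FPKM.

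The companions of visual arrestin were listed with it. Of the 5 other members of the arrestin family that were tested, 3 fell between 22h and 46h and 2 did not pass the test, with a median difference of -0.87 against -0.26 for all genes, of which 32.6% fell. ARR3, the cone arrestin, went from 5.96 ± 1.04 to 2.44 ± 0.835 and 0.58 ± 0.241 FPKM (SD, n = 4), a fall by 1.10 in the second interval (SE 0.191, limma adjusted p = 0.000291). SAG, in contrast, regained its level over that interval. ARRDC2 fell from 3.59 to 0.0825 FPKM (limma adjusted p = 6.58e-05) and ARRDC3 from 1.49 to 0.353 FPKM (limma adjusted p = 0.000216), both alpha-arrestins, which act as adaptors for ubiquitin ligases. Quantile normalization ended the calls of ARR3 (-0.54) and ARRDC3 (-0.25) and left that of ARRDC2, while under median-of-ratios scaling 3 members still fell. ARRDC4 and TXNIP had differences of -0.61 and 0.05 that did not pass. The beta-arrestin genes were under the filter: ARRB1 is listed at 0 in all 12 libraries and ARRB2 at 0.08 FPKM or less. ARRDC1 and ARRDC5 were also under it.

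Genes that work with SAG in rods were mostly not measured above the filter. Of 14 matched genes of rod phototransduction, 11 were under it, as were 59.3% of all named genes. PDE6A, PDE6B, GRK1, RCVRN, GUCY2D, GUCA1B and RGS9 are listed at 0 in all 12 libraries. The 3 that were tested did not pass between 22h and 46h, among them GUCA1A, a guanylate cyclase activator, with 25.7, 13 and 8.88 FPKM at the 3 stages. Of 9 matched markers of rod photoreceptors, 8 were at 0 throughout and the highest value of the list was 0.06 FPKM, so defining rod markers were at or near 0 in the libraries in which SAG reached 13.1 FPKM.

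Of 2 tested genes of the TBK1 kinase family and scaffolds other than TBK1, 1 rose and 1 fell between 22h and 46h. Of all genes 9.87% rose and 32.6% fell. Under either other scaling 1 of the 2 rose and 0 fell. TANK, which binds TBK1, had 10.3 ± 1.31, 11.5 ± 2.85 and 18.6 ± 1.92 FPKM (SD, n = 4), and rose by 0.67 between 22h and 46h (SE 0.185, limma adjusted p = 0.00793), a call lost without 22h replicate 1 (0.49). CHUK, the kinase IKK-alpha, had 2.51, 1.97 and 0.705 FPKM, with a fall by 0.77 (SE 0.290, limma adjusted p = 0.0404) that was lost in 10 of the 22 alternatives, among them those without 22h replicate 2, 3 or 4, with adjusted p from 0.0522 to 0.583. IKBKE, the kinase most related to TBK1, along with IKBKB, IKBKG and the scaffold AZI2, was under the filter. IKBKE had 0.283, 0.388 and 0.0675 FPKM at the 3 stages, and AZI2 had 0.748, 0.458 and 0.265 FPKM.

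Sensors and adaptors act upstream of TBK1. Of 14 matched, 8 were under the filter, as were 59.3% of all named genes, and of the 6 tested, 1 fell and 5 did not pass between 22h and 46h, where 32.6% of all genes fell and 9.87% rose. Under median-of-ratios scaling 1 rose and 0 fell, and under quantile normalization 2 rose and 0 fell. STING1, the adaptor for cytosolic DNA, is listed at 0 in all libraries. CGAS, the DNA sensor, had 0.355, 0.26 and 0.10 FPKM, and MAVS, the adaptor for cytosolic RNA, had 0.478, 0.408 and 0.190 FPKM. RIGI, an RNA sensor, was present at 5.27, 5.01 and 5.05 FPKM, with a difference of 0.01 (SE 0.197, limma adjusted p = 0.973). BIRC3, a ubiquitin ligase, fell by 0.70 (SE 0.169, limma adjusted p = 0.00354), a call lost under median-of-ratios scaling (-0.36) and quantile normalization (-0.26).

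Among 9 tested substrates of TBK1 and their partners, 1 rose, 3 fell and 5 did not pass between 22h and 46h, close to the 9.87% of all genes that rose and the 32.6% that fell. Under either other scaling 2 rose and 2 fell. C9orf72, the partner of the substrate SMCR8, rose from 3.95 ± 1.05 to 11.9 ± 3.32 FPKM (SD, n = 4), a difference of 1.37 (SE 0.224, limma adjusted p = 0.000168). RAB8B, a Rab GTPase, fell by 1.20 (limma adjusted p = 0.000157), and STX17, the syntaxin of autophagosomes, by 1.11 (limma adjusted p = 5.51e-05). OPTN, the autophagy receptor optineurin, fell from 16.5 to 8.52 FPKM (limma adjusted p = 0.00298), a call lost under median-of-ratios scaling and quantile normalization. The receptors SQSTM1 and TAX1BP1 had differences of -0.09 and 0.30 that did not pass, although TAX1BP1 rose under median-of-ratios scaling. IRF3, the substrate through which interferon is induced, was at 0.283 and 0.130 FPKM at 0h and 22h and at 0 in all 46h libraries.

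Of 7 tested negative regulators of TBK1, 3 fell and 4 did not pass, where 32.6% of all genes fell. Under median-of-ratios scaling 3 rose and 3 fell, and under quantile normalization 3 rose and 1 fell. USP38, a deubiquitinase, fell by 1.72 (SE 0.204, limma adjusted p = 8.58e-06), TRAIP, a ubiquitin ligase, by 1.06 (limma adjusted p = 0.00505), and TAX1BP3, a PDZ-domain protein whose place in the list is uncertain, by 1.25 (limma adjusted p = 0.0208). The TAX1BP3 call was lost in 6 of the 22 alternatives, among them those without 22h replicate 1 or 3 and without 46h replicate 1 or 4, with adjusted p up to 0.138, and quantile normalization ended that of TRAIP (-0.54). The median of this list was 0.41, opposite in sign to its 3 falls, because its members that did not pass had positive differences. Among 11 matched interferon-induced genes, 9 were under the filter, beside 59.3% of all named genes, and IFNB1 was at 0 throughout. CXCL10 fell by 0.94 (SE 0.290, limma adjusted p = 0.0157), a call lost in 4 of the 22 alternatives, 2 of them without 46h replicate 2 (-0.79) or 46h replicate 4 (-0.75), and MX1 had 17.1, 21.9 and 25.2 FPKM with a difference of 0.18 that did not pass, although it rose under quantile normalization.

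BTB proteins can bind a ligase core built on CUL3. Of 6 tested core genes other than BTBD9, 4 fell and 2 did not pass between 22h and 46h, and their median difference was -1.01 against -0.26 for all genes, of which 32.6% fell. Under either other scaling 1 rose and 3 fell. RBX1, the RING subunit, had 270 ± 21.8, 229 ± 9.42 and 31.1 ± 3.71 FPKM (SD, n = 4) and fell by 2.85 (SE 0.140, limma adjusted p = 1.20e-09). CUL3, the cullin scaffold, had 14.7 ± 2.21, 16.8 ± 2.08 and 5.16 ± 1.23 FPKM and fell by 1.54 (SE 0.172, limma adjusted p = 4.60e-06). NEDD8, the modifier that activates cullins, had 52.7, 26.5 and 9.70 FPKM and fell by 1.37 (SE 0.207, limma adjusted p = 8.69e-05). All 3 calls held under all alternatives tried. CAND1, a cullin exchange factor, fell by 0.65 (limma adjusted p = 0.0162), a call lost under median-of-ratios scaling (-0.31), quantile normalization (-0.30) and without 46h replicate 3 (-0.58). NAE1 and UBA3, which form the NEDD8-activating enzyme, had differences of 0.31 and -0.30 that did not pass, although NAE1 rose under either other scaling, and UBE2M was under the filter and at 0 in all 46h libraries.

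**Figure D4:**
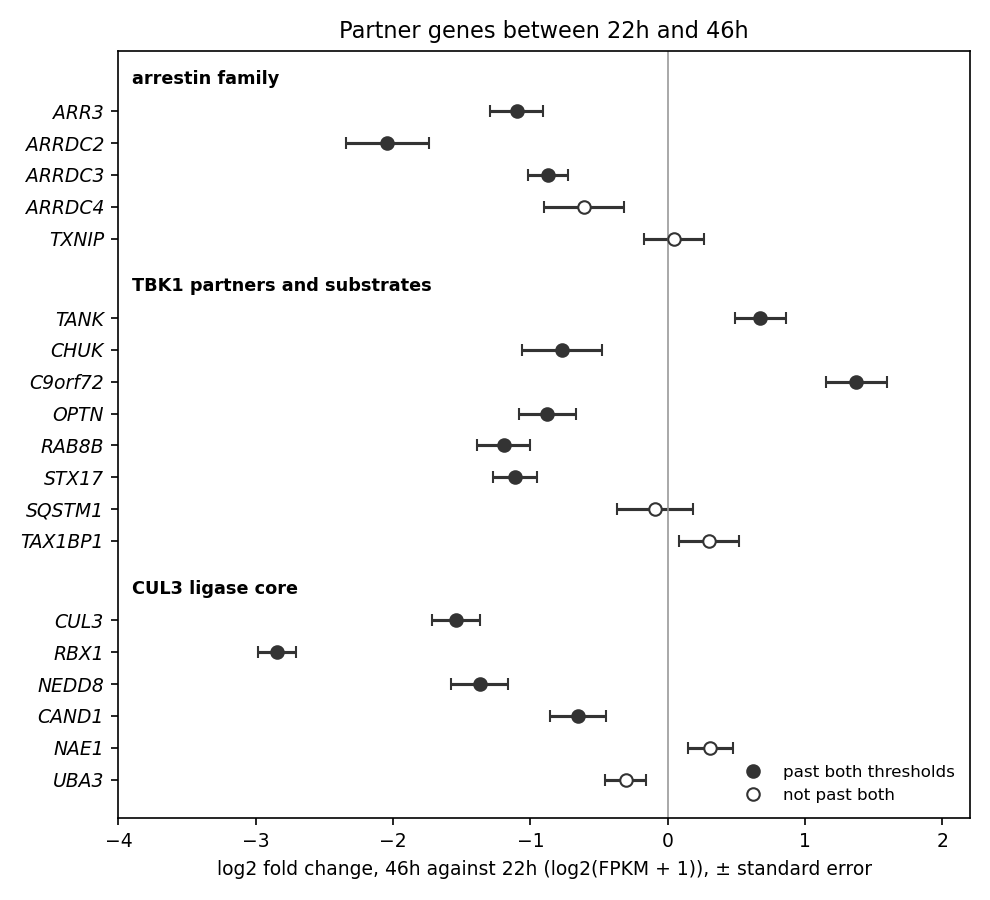
Difference between 22h and 46h on the log2(FPKM + 1) scale (x axis) for 19 tested partners of the 3 genes, with bars of 1 standard error from the limma fit. Filled points passed both thresholds. CUL3, RBX1, NEDD8 and CAND1 lie left of 0, while TANK and C9orf72 lie right of it.

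Other BTB proteins were compared as well. Of 6 tested relatives of the BTBD family, 1 rose and 5 did not pass between 22h and 46h, and the riser BTBD10 (0.66, SE 0.255, limma adjusted p = 0.0458) lost its call in 11 of the 22 alternatives, with adjusted p from 0.0574 to 0.141 and the highest without 22h replicate 1. Its level was 356, 446 and 694 FPKM. Under either other scaling 3 relatives rose and 0 fell. Between 0h and 46h 3 of the 6 relatives rose, namely BTBD3 by 1.05, BTBD10 by 1.01 and BTBD7 by 0.71 (limma adjusted p = 0.000182, 0.00305 and 0.00555), where 16.8% of all genes rose, or 5 of the 6 and 41% under quantile normalization. BTBD3 rose in the first interval by 0.63 (SE 0.185, limma adjusted p = 0.0191), a call lost without 0h replicate 2 (0.49), 22h replicate 2 (0.59) or 22h replicate 4 (0.58). Of 27 tested CUL3 adaptors outside that family, 3 rose, 5 fell and 19 did not pass, beside 9.87% and 32.6% of all genes that rose and fell. Under median-of-ratios scaling 6 rose and 5 fell, and under quantile normalization 9 rose and 2 fell. KLHL7 rose by 1.10 (SE 0.293, limma adjusted p = 0.00674), while KLHL18 fell by 1.55 (SE 0.297, limma adjusted p = 0.000656), KCTD10 by 1.42 (limma adjusted p = 0.00643) and KLHL22 by 0.98 (limma adjusted p = 0.0122), the last a call that quantile normalization ended (-0.46). Of 12 matched genes of iron handling, 10 were under the filter, where 59.3% of all named genes were. FTL, the ferritin light chain, and IREB2, an iron regulatory protein, had differences of -0.07 and 0.29 between 22h and 46h that did not pass, although IREB2 rose under either other scaling. FTL fell by 0.74 between 0h and 22h (limma adjusted p = 0.00159) and by 0.81 between 0h and 46h (limma adjusted p = 0.000203), the latter a call that median-of-ratios scaling ended (-0.40). IREB2 rose by 0.78 between 0h and 46h (limma adjusted p = 0.0168), a call lost without 0h replicate 2 (0.59) or 46h replicate 1 (0.64). Of all genes 18.9% fell between 0h and 22h, and 39.1% fell and 16.8% rose between 0h and 46h, against 33% and 29.2% under median-of-ratios scaling.

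The libraries themselves differed by stage in ways that enter the scaling. Mitochondrially encoded genes made up 1.79% to 3.76% of the FPKM sum of a 0h library, 8.06% to 12% of a 22h library and 12.8% to 16.7% of a 46h library, and with TPM computed without them the 22h to 46h differences of SAG, TBK1 and BTBD9 kept their order. Each of 9 matched oocyte markers exceeded 1 FPKM in at least 1 library, but 8 of them fell between 22h and 46h, with a median difference of -1.81, where 32.6% of all genes fell and their median was -0.26, and 7 fell under either other scaling. Their levels summed to between 13722 and 19270 FPKM in the 0h libraries, between 16392 and 23323 in those of 22h and between 4006 and 7477 in those of 46h, with ZP3 falling from 4949 to 95.5 FPKM and GDF9 from 866 to 37.8 FPKM. This fall accompanied the higher values of SAG, TBK1 and BTBD9 and the falls in the partner lists, and its part in them was not tested. Of 11 cumulus and granulosa markers, 9 stayed under 1 FPKM in every library, and the list summed to between 4.03 and 9.53 FPKM in the 0h libraries, between 4.77 and 6.99 in those of 22h and between 4.36 and 6.43 in those of 46h, mostly from STAR. Of the 2 that were tested, STAR had a difference of 0.34 between 22h and 46h that did not pass (SE 0.272, limma adjusted p = 0.326) except under the other scalings, where it rose, and SERPINE2 fell from 2.06 to 0.335 FPKM (-1.19, SE 0.170, limma adjusted p = 5.05e-05). At 0h, replicate 4 correlated least with the other libraries of its stage. Without it the difference between 0h and 22h was -2.38 for SAG, 1.26 for BTBD9 and -0.83 for TBK1, and the TBK1 difference was -0.18 without 0h replicate 1 and -0.09 without 0h replicate 2.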

How the data were processed

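Oocyte transcriptomes were profiled by SMART-Seq2 in 12 libraries, 4 at each of 0h, 22h and 46h. The authors trimmed the reads with Trim Galore, aligned them to Sscrofa11 with STAR and used RSEM to make the deposited FPKM values, per the methods and the submitters' processing notes. No read counts were used here, so the depth is unknown and no counting interval is given. The label of each library gave its group.

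Of 31908 identifiers 15029 had a name in the gene name table. The scale was log2(FPKM + 1). Stage was the only factor of a fit made in R 4.3.3 by limma 3.58.1 (eBayes with trend), which covered the 7013 genes averaging 1 FPKM or more. Two-sided p-values were adjusted by Benjamini-Hochberg over those genes, and calls needed an adjusted p under 0.05 and a fold change over 1.5. The fit was also run on simulated data, and nothing is concluded from that here. The test between 0h and 22h that was planned for SAG, TBK1 and BTBD9 is not used, since the choice of the genes had drawn on the 22h libraries. The study tested counts with DESeq2, for which FPKM values do not serve.

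The members, lists, tests and alternatives were chosen with earlier results of these data known. Named were the members, the 7 genes that follow them by rise, the 5 most like each by Pearson's r, and the nearest coding genes. Named too were all direct partners, and up to 4 called genes of each other partner list with the largest difference between 22h and 46h. RNF7, GUCA1A, RIGI, STING1, CGAS, MAVS, SQSTM1, TAX1BP1, IRF3, IFNB1, MX1, BTBD3, BTBD7, ZP3, GDF9, STAR, SERPINE2, FTL, IREB2 and the rod genes at 0 were named outside this rule, after their values were seen. The lists were written by hand, and several hold genes with other roles too. Alternatives were a pseudocount of 0.1, no filter, a mean of at least 5 FPKM, TPM with and without mitochondrially encoded genes, median-of-ratios scaling, quantile normalization, a replicate block, eBayes without trend, only the groups compared, and each library left out. Tables and figures were made with Python 3.11.15, pandas 2.3.3 and matplotlib 3.10.9.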

Additional observations from a re-analysis of the deposited data

Results flagged for a closer look

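In 14 of 177 groups of 4 libraries, the highest or lowest value of a named gene stood far from the other 3 by Dixon's test, which chance does in about 1 of 20 groups. SAG, TBK1 and BTBD9 were not among them at any stage. Among the companions by likeness, BBOX1 had 39.38 FPKM in 46h replicate 1 against 45.65 to 46.52 in the others, and SMAD1 had 11.18 FPKM in 46h replicate 3 against 15.29 to 15.54.

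For the arrestin and TBK1 lists, ARR3 had 0.94 FPKM in 46h replicate 2 against 0.43 to 0.49, and CHUK 0.79 FPKM in 22h replicate 1 against 2.27 to 2.54. TANK had 12.31 FPKM in 0h replicate 2 against 9.57 to 9.86, and BIRC3 22.2 FPKM in the same library against 31.87 to 32.03. TRAIP had 9.43 FPKM in 0h replicate 1 against 7.83 to 8.03, and CXCL10 3.61 FPKM in 22h replicate 2 against 2.16 to 2.38. For the ligase list, CUL3 had 17.97 FPKM in 0h replicate 1 against 13.39 to 13.95, CAND1 55.85 FPKM in 22h replicate 3 against 72.52 to 73.92, and KLHL22 1.45 FPKM in 46h replicate 3 against 0.65 to 0.69. BTBD7 had 9.1 FPKM in 22h replicate 2 against 4.52 to 5.02 and 6.29 FPKM in 46h replicate 3 against 8.54 to 8.78, and the oocyte marker ZP3 had 199.29 FPKM in 46h replicate 3 against 51.51 to 71.68.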

How the results depend on the processing

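No difference of SAG, TBK1 or BTBD9 changed its sign in any of the 22 alternatives, but many of these could not move it. Between 22h and 46h the genes were chosen for their rise, so the sign is no test there. Each difference is between stage means, so the filter, replicate block, eBayes trend and groups fitted left it unchanged. Leaving out a library of the stage not compared did so too. The BTBD9 difference between 0h and 22h was therefore 1.24 with no filter, as reported. It ran from 0.81 to 1.56 with each library left out. With a pseudocount of 0.1 the SAG difference was 5.21 between 22h and 46h and -4.12 between 0h and 22h (-2.13 as reported), and with quantile normalization it was 1.59 between 0h and 46h (0.94 as reported). The TBK1 difference between 0h and 22h ran from -0.83 to -0.09 with each library left out, and the BTBD9 difference between 0h and 46h was 4.46 with a pseudocount of 0.1 and 4.39 with quantile normalization. With a mean of at least 5 FPKM, 2546 genes passed between 0h and 46h against 3922, as fewer genes were tested.

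Scaling moved the balance of calls between 22h and 46h. Of those calls 23.3% were rises, against 44.0% under median-of-ratios scaling and 59.5% under quantile normalization. Between 0h and 46h the shares were 30.1%, 46.9% and 61.7%, and between 0h and 22h 29.4%, 34.7% and 48.2%. On the partner lists 6 genes rose between 22h and 46h, against 18 and 23, where 9.87%, 20.1% and 28.1% of all genes tested rose. Falls are given list by list above, and 32.6%, 25.6% and 19.1% of all genes fell. Of 96 pairs of a named gene and a comparison, 67 lost no call in any alternative and 0 reversed. Calls that were gained only under another scaling, such as those of TAX1BP1, NAE1 and IREB2, do not enter this tally.

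Replicate numbers did not meet the bar for pairing, which was a correlation over 0.1 in every pair. In 12 pairs with the same number, deviations from the stage means correlated between -0.466 and 0.381. The 3 pairs over 0.1 (0.381, 0.211 and 0.127) were all between 22h and 46h, where 3 of 4 numbers matched best with their own, and the pair of replicate 2 had 0.009. With the replicate number as a block, 1801 genes passed between 0h and 22h against 1873, and 2933 between 22h and 46h against 2975. The block ended 1 call of a named gene, that of BTBD10 between 22h and 46h. The precision of values near 0, such as SAG at 22h, cannot be given, since the depth is unknown.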
